A study of Mus musculus with 2 samples.

Results

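Wnt2, Bmp2, Hgf, Bmp5 and Tgfb2 are 5 of the 500 genes of a MERFISH panel, an imaging assay in which single RNA molecules are identified in place by a fluorescent code, measured here in 2 sections of mouse liver. They were taken by name, as secreted growth factors that endothelial and mesenchymal cells are known to make. This choice was made with earlier results of these data known. Both sections are labelled liver, tag 2d, replicates 1 and 2, and come from frozen tissue. The labels used here give no strain, age, genotype or treatment, and do not tell if 1 animal or more gave them. The series' design text speaks of treated mice with liver metastases, but no label ties a section to either, so no treatment was assigned and all comparisons lie within sections. The p-values therefore reflect counting error and how far the sections disagree, not a spread known to be between animals.

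Endothelial cells of the liver lobule are known as a source of Wnt and BMP ligands that act on the hepatocytes beside them, which is called angiocrine signalling. Wnt2, a ligand of the Wnt pathway, is known from endothelium of the lobule centre, where Wnt signals keep up hepatocyte genes such as Glul, which encodes glutamine synthetase, and Cyp2e1. Bmp2 is known in liver endothelium as a ligand that drives hepatocyte hepcidin. Hgf, the ligand of the receptor Met, is known from stellate cells, while Bmp5 is a BMP ligand and Tgfb2 a TGF-beta ligand active in mesenchyme and matrix formation.

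Promoter windows are shown for Tgfb2 and Bmp5, the pair with the clearest difference in collagen-rich cells, and for Wnt2, which was higher in endothelial cells. Each runs from 250 bases before to 50 bases after the gene's start, 5′ to 3′ on the gene's strand, from RefSeq in the build GRCm38.p6. These windows are at chr1:186705940-186706239 (minus strand) for Tgfb2, chr9:75775115-75775414 (plus strand) for Bmp5 and chr6:18030396-18030695 (minus strand) for Wnt2. Capitals mark matches, on either strand, to the TATA box, TATAAA, or to the E-box with the letters CACGTG, or to the ETS core with the letters AGGAAG, or to the GATA core with the letters AGATAA. These matches do not overlap each other in these windows.
Tgfb2: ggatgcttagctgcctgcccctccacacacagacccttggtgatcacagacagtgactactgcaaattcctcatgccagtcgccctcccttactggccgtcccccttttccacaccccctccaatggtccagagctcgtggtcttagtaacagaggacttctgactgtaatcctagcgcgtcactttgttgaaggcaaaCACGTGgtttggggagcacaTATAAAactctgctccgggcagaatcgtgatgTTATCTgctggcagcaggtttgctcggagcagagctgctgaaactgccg
Bmp5: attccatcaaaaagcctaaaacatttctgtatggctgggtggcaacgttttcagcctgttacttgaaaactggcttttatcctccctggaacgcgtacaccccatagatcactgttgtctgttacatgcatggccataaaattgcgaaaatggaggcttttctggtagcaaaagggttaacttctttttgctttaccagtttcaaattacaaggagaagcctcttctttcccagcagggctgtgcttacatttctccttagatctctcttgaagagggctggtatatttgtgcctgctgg
Wnt2: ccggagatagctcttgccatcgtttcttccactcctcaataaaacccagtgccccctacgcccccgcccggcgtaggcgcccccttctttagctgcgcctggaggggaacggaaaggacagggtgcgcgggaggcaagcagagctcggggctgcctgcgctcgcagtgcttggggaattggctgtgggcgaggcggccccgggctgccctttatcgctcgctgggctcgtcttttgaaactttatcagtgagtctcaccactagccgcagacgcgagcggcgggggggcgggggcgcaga
The Tgfb2 window holds 1 TATA box, 1 E-box and 1 GATA core, the last read on the opposite strand, while the Bmp5 and Wnt2 windows hold none of the 4 motifs. Of 32851 RefSeq promoter windows of this length, 13.6% hold the TATA box, 7.15% the E-box, 11.2% the GATA core and 35.4% the ETS core. Hgf has windows at 2 starts, which hold the ETS core 2 times and 1 time. A match is a description of letters only. Bmp2 is named only.

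Section 1 held 26037 segmented cells and section 2 held 85929, of which 9209 and 16290 passed minimums of 10 gene counts and 50 cubic µm of volume and were kept. Lengths in µm are assumed, since the files name no unit. A kept cell was called endothelial with at least 3 counts over Cdh5, Kdr, Tek, Oit3, Clec14a and Mmrn2, and collagen-rich with at least 3 over Col1a1 and Col3a1, the larger sum deciding. This gave 289 endothelial, 451 collagen-rich and 8469 other cells in section 1, with medians of 71, 36 and 26 gene counts per cell. Section 2 gave 27, 367 and 15896 cells, with medians of 22, 18 and 15. All the endothelial cells of section 2 together held only 704 counts, so that group is known mainly from section 1. Levels by cell group are counts per 10000 counts of the 491 genes that did not set the groups. Levels by distance, given further below, are per 10000 counts of all genes but Glul. Both have exact 95% Poisson intervals that cover counting error only. Probe sets differ between genes, so levels are compared between cells, not between genes. The 50 blank barcodes, which name no gene, give the background: their mean level in other cells was 1.43 per 10000 in section 1 and 0.655 in section 2.

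Genes outside the rule matched the endothelial label. Lyve1 and Mrc1, known from sinusoidal endothelium, were 4.30 ± 0.61 and 3.85 ± 0.63 higher on the log2 scale (fitted difference ± SE) in endothelial than in other cells. Pcdh12, a protocadherin gene of endothelial cells, was higher by 4.37 ± 0.65. The endothelial cells of section 1 also held more macrophage RNA, with 5 markers at 114 counts per 10000 against 62.2 in other cells. In section 2 these were at 14.2, from 1 count, against 55.3. In collagen-rich cells, Acta2 of smooth muscle and myofibroblasts was higher by 4.20 ± 0.57 and Pdgfra of fibroblasts by 2.61 ± 0.63 than in other cells. Both belong to a check list of 5 mesenchymal markers with Cxcl12, Lepr and Cald1. Cxcl12 was at 0.75 ± 0.50 and did not pass (adjusted p = 0.449 in edgeR's quasi-likelihood test). In each section, 1 of the 5 had no count in collagen-rich cells. The list summed to 150 and 126 per 10000 there, against 61.0 and 39.4 in other cells. Spp1 and Sox9, both known from bile duct cells, were higher there too, by 3.21 ± 0.57 and 2.38 ± 0.52, and their part in the results below was not tested. Hepatocyte RNA was plentiful in every group: 8 hepatocyte markers summed to 1861 and 2060 counts per 10000 in the endothelial cells of sections 1 and 2, to 1665 and 1737 in the collagen-rich cells and to 2281 and 2811 in the other cells. Endothelial and collagen-rich cells also held each other's markers. The endothelial markers summed to 94.3 and 80.2 per 10000 in the collagen-rich cells of sections 1 and 2, against 36.5 and 37.4 in other cells. The collagen markers summed to 45.2 and 56.8 in endothelial cells, the latter from 4 counts, against 32.0 and 38.9 in other cells. In other cells the rule keeps both lists low. Segmented cells therefore held RNA of more than one cell type, and how far this sets the levels below was not tested.

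Bmp2 and Wnt2 were higher in endothelial than in other cells. Bmp2 held 41.5 counts per 10000 in endothelial cells, 14.6 in collagen-rich cells and 4.62 in other cells of section 1, from 101, 29 and 154 counts. In section 2 it held 99.4, 4.01 and 5.03 per 10000, from 7, 2 and 144 counts. Endothelial cells were highest in both sections, with intervals of 33.8 to 50.4 and 40.0 to 205 that lay above those of other cells. Collagen-rich cells came next in section 1 (9.80 to 21.0) but overlapped with other cells in section 2 (0.486 to 14.5). The fitted log2 difference, endothelial over other, was 3.20 ± 0.61 (SE, adjusted p = 1.25e-05 in edgeR's quasi-likelihood test with Benjamini-Hochberg adjustment over 416 genes). Each section by itself gave 3.17 and 4.31. With at least 5 marker counts the call was lost, at 2.78 with an adjusted p of 0.165.

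Wnt2 held 18.1 counts per 10000 in endothelial cells, 9.58 in collagen-rich cells and 3.75 in other cells of section 1, from 44, 19 and 125 counts. In section 2 it held 14.2, 4.01 and 3.42 per 10000, from 1, 2 and 98 counts. The order was the same in both sections, but with 1 count the endothelial interval of section 2, 0.360 to 79.1, covered every other group. The highest blank in endothelial cells reached 5.34 per 10000 in section 1 and 14.2 in section 2, where it was level with Wnt2. In section 1 the endothelial interval of 13.1 to 24.3 lay above that of other cells and overlapped with the collagen-rich one, 5.77 to 15.0. The log2 difference, endothelial over other, was 2.08 ± 0.64 (SE), with an adjusted p of 0.0294 in edgeR's test. This call was the less firm of the pair: DESeq2 gave 1.80 with an adjusted p of 0.218, and a minimum of 20 gene counts per cell gave 2.17 with 0.106. It was also lost without the section block (0.439) and at 5 marker counts (0.359).

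Hgf, Bmp5 and Tgfb2 did not pass this test, with log2 differences, endothelial over other, of -0.05 (95% interval -1.54 to 1.44), 0.15 (-1.34 to 1.65) and -0.07 (-3.04 to 2.90). Their intervals are wide, since section 2 had no endothelial count of any of these genes, which allows up to 42.6 per 10000 if a count of 0 is read as at most 3 counts, and up to 52.4 by the exact interval. Thus 2 of the 5 growth factors rose in endothelial cells, where 4.81% of all tested genes rose and none fell. Of 416 tested genes, 20 rose and 0 fell by edgeR, with 66 at an unadjusted p under 0.05, and the median log2 difference of all genes was -0.28. Scaling by cell volume moved that median to 0.29 and gave 57 higher and 1 lower, with Bmp2 at 3.88 and Wnt2 at 2.69. Among 30 other tested genes of the Wnt, BMP, TGF-beta, HGF and related ligand and receptor lists, 2 rose and none fell. These were Il6st, the shared receptor subunit of the IL-6 family, at 2.12 ± 0.57, and Kit, the receptor of stem cell factor, at 2.07 ± 0.65. The median over these 30 genes was -0.25.

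**Figure D1:**
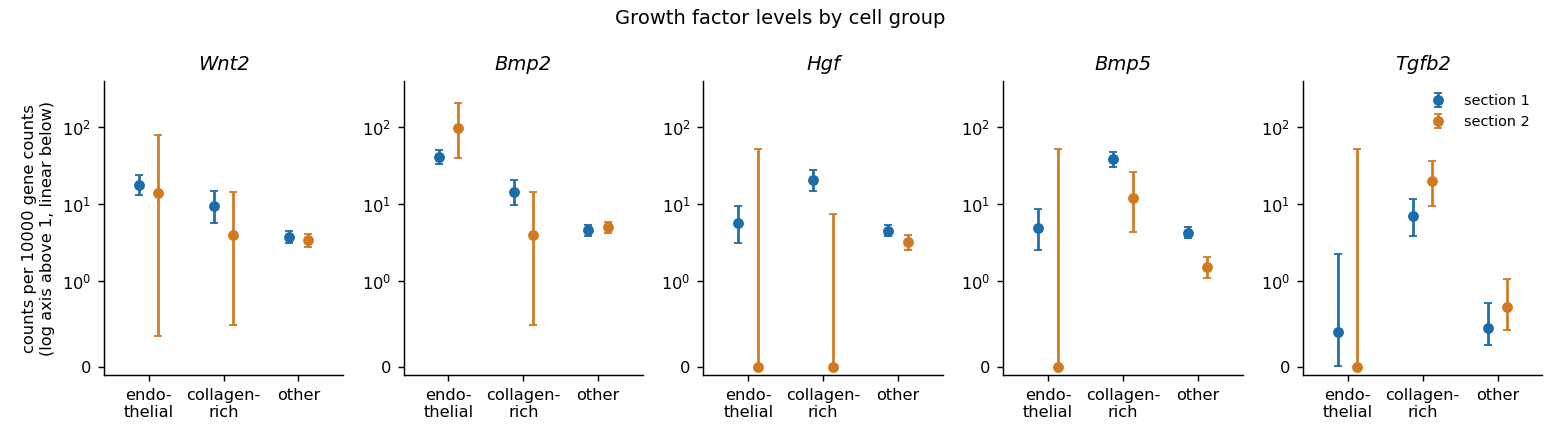
Counts per 10000 gene counts of each growth factor (log axis above 1, linear below) in endothelial, collagen-rich and other cells, 1 point per section with its exact 95% Poisson interval. Bmp2 and Wnt2 were highest in endothelial cells in both sections, and Tgfb2 and Bmp5 were highest in collagen-rich cells in both, with wide intervals for the 27 endothelial cells of section 2. There Wnt2 rests on 1 count, level with the highest blank.

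Tgfb2 and Bmp5 were higher in collagen-rich than in other cells. Tgfb2 held 0.411 counts per 10000 in endothelial cells, 7.06 in collagen-rich cells and 0.450 in other cells of section 1, from 1, 14 and 15 counts. In section 2 it held 0, 20.1 and 0.699 per 10000, from 0, 10 and 20 counts. Collagen-rich cells were highest in both sections, and their intervals, 3.86 to 11.8 and 9.62 to 36.9, lay above those of other cells. The log2 difference, collagen-rich over other, was 3.94 ± 0.60 (SE, adjusted p = 2.26e-08 in edgeR's test), and 3.97 and 4.84 in each section by itself. Tgfb2 was close to the background overall: in kept cells it had 30 counts in each section, as many as or fewer than 22 and 4 of the 50 blanks. The highest blank in collagen-rich cells reached 7.57 and 10.0 per 10000, above the Tgfb2 level in section 1 and below it in section 2.

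Bmp5 held 4.93 counts per 10000 in endothelial cells, 38.8 in collagen-rich cells and 4.29 in other cells of section 1, from 12, 77 and 143 counts. In section 2 it held 0, 12.04 and 1.54 per 10000, from 0, 6 and 44 counts. Collagen-rich cells were again highest in both sections, with intervals of 30.7 to 48.5 and 4.42 to 26.2 above those of other cells, while endothelial and other cells overlapped. The log2 difference, collagen-rich over other, was 2.77 ± 0.58 (SE, adjusted p = 0.000152 in edgeR's test), and 3.18 and 2.97 in each section by itself. The call was lost at 5 marker counts, at 2.14 with an adjusted p of 0.205, and without the section block, at 2.89 with 0.0596.

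Hgf was uneven between the sections. It held 5.75 counts per 10000 in endothelial cells, 20.7 in collagen-rich cells and 4.56 in other cells of section 1, from 14, 41 and 152 counts. In section 2 all 92 counts lay in other cells, at 3.21 per 10000, and the 0 of 4985 collagen-rich counts allows up to 6.02 on the limit of 3 counts, and 7.40 by the exact interval. The collagen-rich cells of section 1 stood above its other cells, with intervals of 14.8 to 28.1 and 3.86 to 5.34, and the collagen-rich cells of section 2 did not. Cells of section 2 with exactly 2 collagen counts, which the rule places among other cells, held 7 Hgf counts at 19.9 per 10000 (8.01 to 41.0), close to the collagen-rich level of section 1. The log2 difference, collagen-rich over other, was 1.16 ± 0.61 (SE) with an adjusted p of 0.28 in edgeR's test, and only the looser minimum of 2 marker counts brought it past the threshold, at 1.63 with 0.003.

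Wnt2 and Bmp2 differed from other cells by 0.71 (95% interval -0.50 to 1.93) and 0.84 (-0.34 to 2.02) in collagen-rich cells and did not pass. So 2 of the 5 growth factors rose in collagen-rich cells, where 4.57% of tested genes rose and 0.721% fell, which is 19 and 3 of 416 with a median of -0.04. Without TMM normalization the split was 45 and 10 with a median of 0.22, and scaled by cell volume it was 32 and 20. Of the 30 other pathway genes tested, 3 rose and none fell, with a median of 0.18. Jag1, a Notch ligand, was higher by 2.94 ± 0.56, Pdgfra by 2.61 ± 0.63 and Il6st by 1.82 ± 0.51.

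Set directly against each other, endothelial and collagen-rich cells split the growth factors. Each group also held markers of the other, as given above, and the part of this in the differences was not tested. Bmp2 was higher in endothelial cells by 2.36 ± 0.62 on the log2 scale (SE, adjusted p = 0.00676), while Bmp5 differed by -2.62 ± 0.75 (0.0176) and Tgfb2 by -4.01 ± 1.19 (0.0214), all in edgeR's quasi-likelihood test. Wnt2 differed by 1.37 (95% interval 0.05 to 2.68) and Hgf by -1.21 (-2.64 to 0.22), and neither passed after adjustment, at 0.372 and 0.629. Of the 5, then, 1 rose where 2.4% of 416 genes rose, and 2 fell where 1.68% fell, which is 10 and 7 genes with a median of -0.06. The split was 15 and 19 without TMM and 41 and 6 scaled by cell volume. None of the 30 other pathway genes passed. The Bmp5 and Tgfb2 differences rest on section 1, since both had no endothelial count in section 2. All 3 calls were lost without the section block, with adjusted p of 0.135 for Bmp2, 0.408 for Bmp5 and 0.0986 for Tgfb2. Of these 3 genes, Bmp2 alone had counts in both groups of both sections, at 1.504 and 4.63 in each section by itself.

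Most of the counts lay outside these groups all the same. In section 1 endothelial cells held 35.6% of the Bmp2 and 23.4% of the Wnt2 counts in kept cells, against 6.44% of all other genes' counts. Collagen-rich cells held 46.7% of the Tgfb2 and 33.2% of the Bmp5 counts, against 5.25% of all. Other cells therefore held the larger part of Bmp2 (54.2%), Wnt2 (66.5%), Bmp5 (61.6%) and Hgf (73.4%), and 50% of the 30 Tgfb2 counts. In section 2, other cells held 98.1% of all other genes' counts, against 66.7% of Tgfb2, 88% of Bmp5, 94.1% of Bmp2, 97.0% of Wnt2 and 100% of Hgf. The highest blank in other cells reached 7.19 and 14.1 per 10000 in sections 1 and 2, above every growth factor there. In kept cells, 4 and 1 blanks had at least as many counts as Wnt2, 3 and 1 as Hgf, 2 and 2 as Bmp5, and 0 and 1 as Bmp2. How many of the counts in other cells are background was not tested. Among kept cells with any count of a growth factor, a single count was the rule. In section 1, 241 kept cells had at least 1 Bmp2 count, and 35 of them had at least 2.

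Cells with at least 3 macrophage or erythroid marker counts were looked at apart within the other cells. The macrophage-rich cells of section 1 held 1.77 to 5.89 counts per 10000 of Wnt2, Bmp2, Hgf and Bmp5, with intervals that overlapped with those of the remaining cells. In the 202 erythroid-rich cells of section 2, Wnt2 held 24.9 per 10000 (13 counts, interval 13.3 to 42.6), above 3.01 in the remaining cells. The 634 erythroid-rich cells of section 1 did not show this, with 3.25 per 10000 against 3.95. A blank barcode reached 84.3 per 10000 in the same erythroid-rich cells of section 2, over 3 times the Wnt2 level, and its part in that value was not tested.

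Values near the marker thresholds differed between the sections. In section 1, cells with exactly 3 endothelial marker counts held 24.0 Bmp2 and 10.9 Wnt2 counts per 10000, and those with 2 held 23.7 and 4.39. Cells with exactly 3 collagen counts held 24.1 Bmp5 and 6.56 Tgfb2 counts per 10000, and those with 2 held 22.8 and 2.40. In section 1, cells just below the thresholds thus carried almost as much Bmp2 and Bmp5 as cells just above them. In section 2, with 22 cells at exactly 3 endothelial counts and 119 at 2, Bmp2 held 72.3 and 44.0 per 10000 and Wnt2 18.1 and 20, from 4, 11, 1 and 5 counts. Its cells with exactly 3 collagen counts held 20.4 Bmp5 and 20.4 Tgfb2 counts per 10000, and those with 2 held 5.69 of each, from 3 and 2 counts. These few counts give intervals that overlap across the threshold.

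Many transcripts lay in no cell, so the decoded transcripts themselves were examined next. Outside cells lay 50.3% of the 511 Wnt2 transcripts of section 1 and 27.5% of the 284 of section 2, against 40.1% and 34.4% over all genes. For Tgfb2 it was 52.0% of 98 and 27.4% of 73, for Bmp5 42.2% of 562 and 17.6% of 125, for Hgf 41.3% of 395 and 38.5% of 226. Bmp2 was below all genes in both sections, at 30.8% of 451 and 23.9% of 385. Blanks were at 57.5% and 48.5%. The transcripts within 10 µm of each decoded transcript were then counted. Those of a marker list were divided by those of the 491 genes that did not set the groups. This ratio was divided by the same ratio around these 491 genes pooled, called all genes below. This measure, chosen after the data were seen, uses no cell outlines and adjusts for how dense the surroundings are.

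Around Bmp2, endothelial marker transcripts were 4.71 times as frequent as around all genes in section 1 and 3.46 times in section 2, the fifth highest of 391 genes in both. Around Wnt2 they were 2.97 and 2.38 times as frequent, at ranks 11 and 20. Of the 50 blanks, 30 and 13 had at least 50 transcripts and were compared; the highest of these reached 1.47 and 1.93, below both genes. Bmp5, at 1.58, was above the highest blank in section 1 and level with it in section 2, at 1.93. Tgfb2 (0.980 and 1.84) and Hgf (1.27 and 0.951) were below it in both. The genes above Bmp2 were Lyve1, Pcdh12, Mrc1 and Ushbp1 in section 1 and Pcdh12, Vwf, Lyve1 and Ushbp1 in section 2, and Lyve1 and Mrc1 are known as uptake receptors of sinusoidal endothelium.

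Around Tgfb2, collagen marker transcripts were 25.1 times as frequent as around all genes in section 1, the highest of 391 genes, and 15.6 times in section 2, at rank 3. The highest blank reached 5.12 and 3.42. Bmp5 came to 3.33 and 4.61 times, at ranks 27 and 29, below the highest blank in section 1 and above it in section 2. Bmp2, Wnt2 and Hgf lay between 1.26 and 2.48, below the highest blank in both sections. For a list of 5 other mesenchymal markers, Pdgfra, Acta2, Cxcl12, Lepr and Cald1, Bmp5 was the highest of 386 genes in section 1 at 1.84 times and rank 25 in section 2 at 1.42. Tgfb2 came to 1.44 and 1.57 times, at ranks 3 and 12, and Hgf to 1.43 and 1.10, at ranks 4 and 122. The highest blank reached 1.38 and 2.62 for this list, so in section 2 all 3 genes lay below it.

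A plain share of transcripts with at least 1 marker transcript within 10 µm, which does not adjust for density, was also above that of all other genes in both sections for Bmp2 with endothelial and for Tgfb2 and Bmp5 with collagen markers, and for Wnt2 with endothelial markers in section 2 only. An endothelial marker lay by 63.2% of Bmp2 transcripts in section 1 and 25.5% in section 2, against 30.1% and 10.4% of all other genes' transcripts. For Wnt2 it was 30.9% (27.1 to 35.1, Wilson 95% interval), close to all other genes, in section 1 and 18.3% (14.2 to 23.2) in section 2. A collagen marker lay by 40.8% and 39.7% of Tgfb2 and by 36.7% and 32.0% of Bmp5 transcripts, against 22.1% and 11.2% of all other genes' transcripts. Hgf (38.5% and 19.9%) and Bmp2 (35.5% and 18.7%) were above all other genes there too, and in section 1 Hgf was above Bmp5. Wnt2 came to 24.5% and 17.96%. In section 1 the 1014 collagen neighbours of Tgfb2 came from 40 of its 98 transcripts. Wnt2 also had erythroid marker transcripts around it, 2.50 and 3.51 times as frequent as around all genes, with the highest blank at 3.88 and 7.20.

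**Figure D2:**
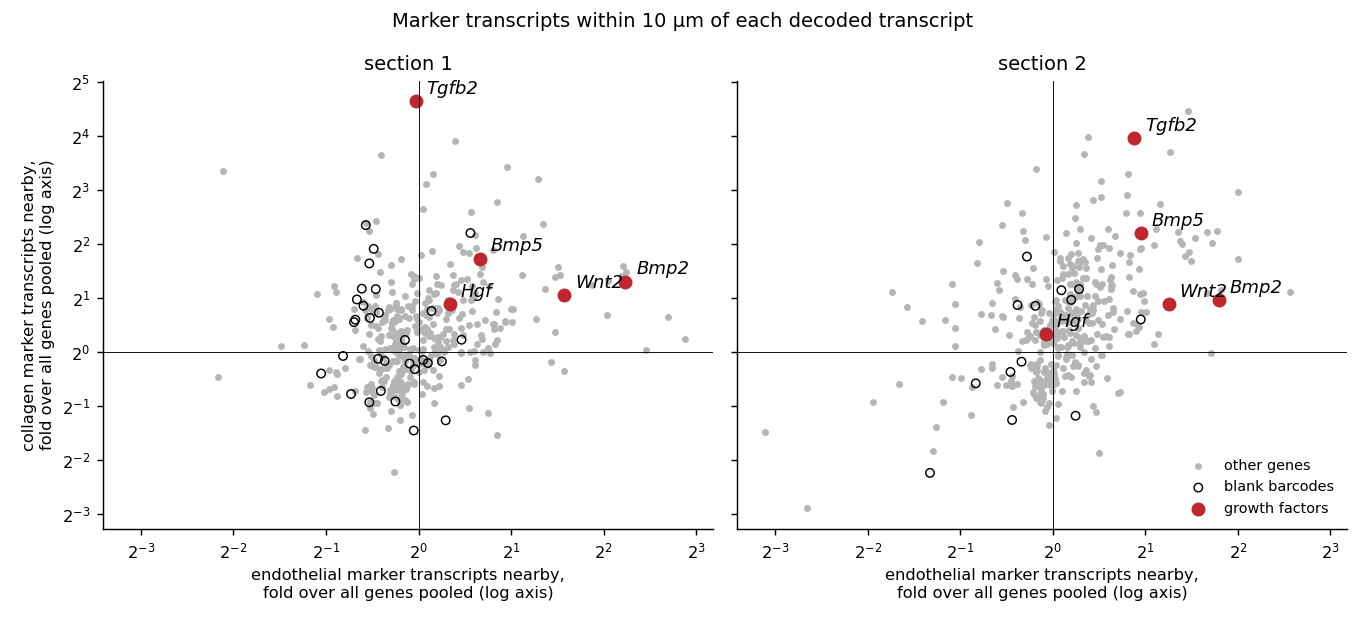
Frequency of endothelial (x) and collagen (y) marker transcripts within 10 µm of the transcripts of each gene, as a fold over all genes pooled (both axes logarithmic), by section. Grey points are other genes, open circles blank barcodes and red points the growth factors: Bmp2 and Wnt2 lie to the right of the 30 and 13 blanks compared in sections 1 and 2, and Tgfb2 lies above them at 25.1 and 15.6.

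**Figure D3:**
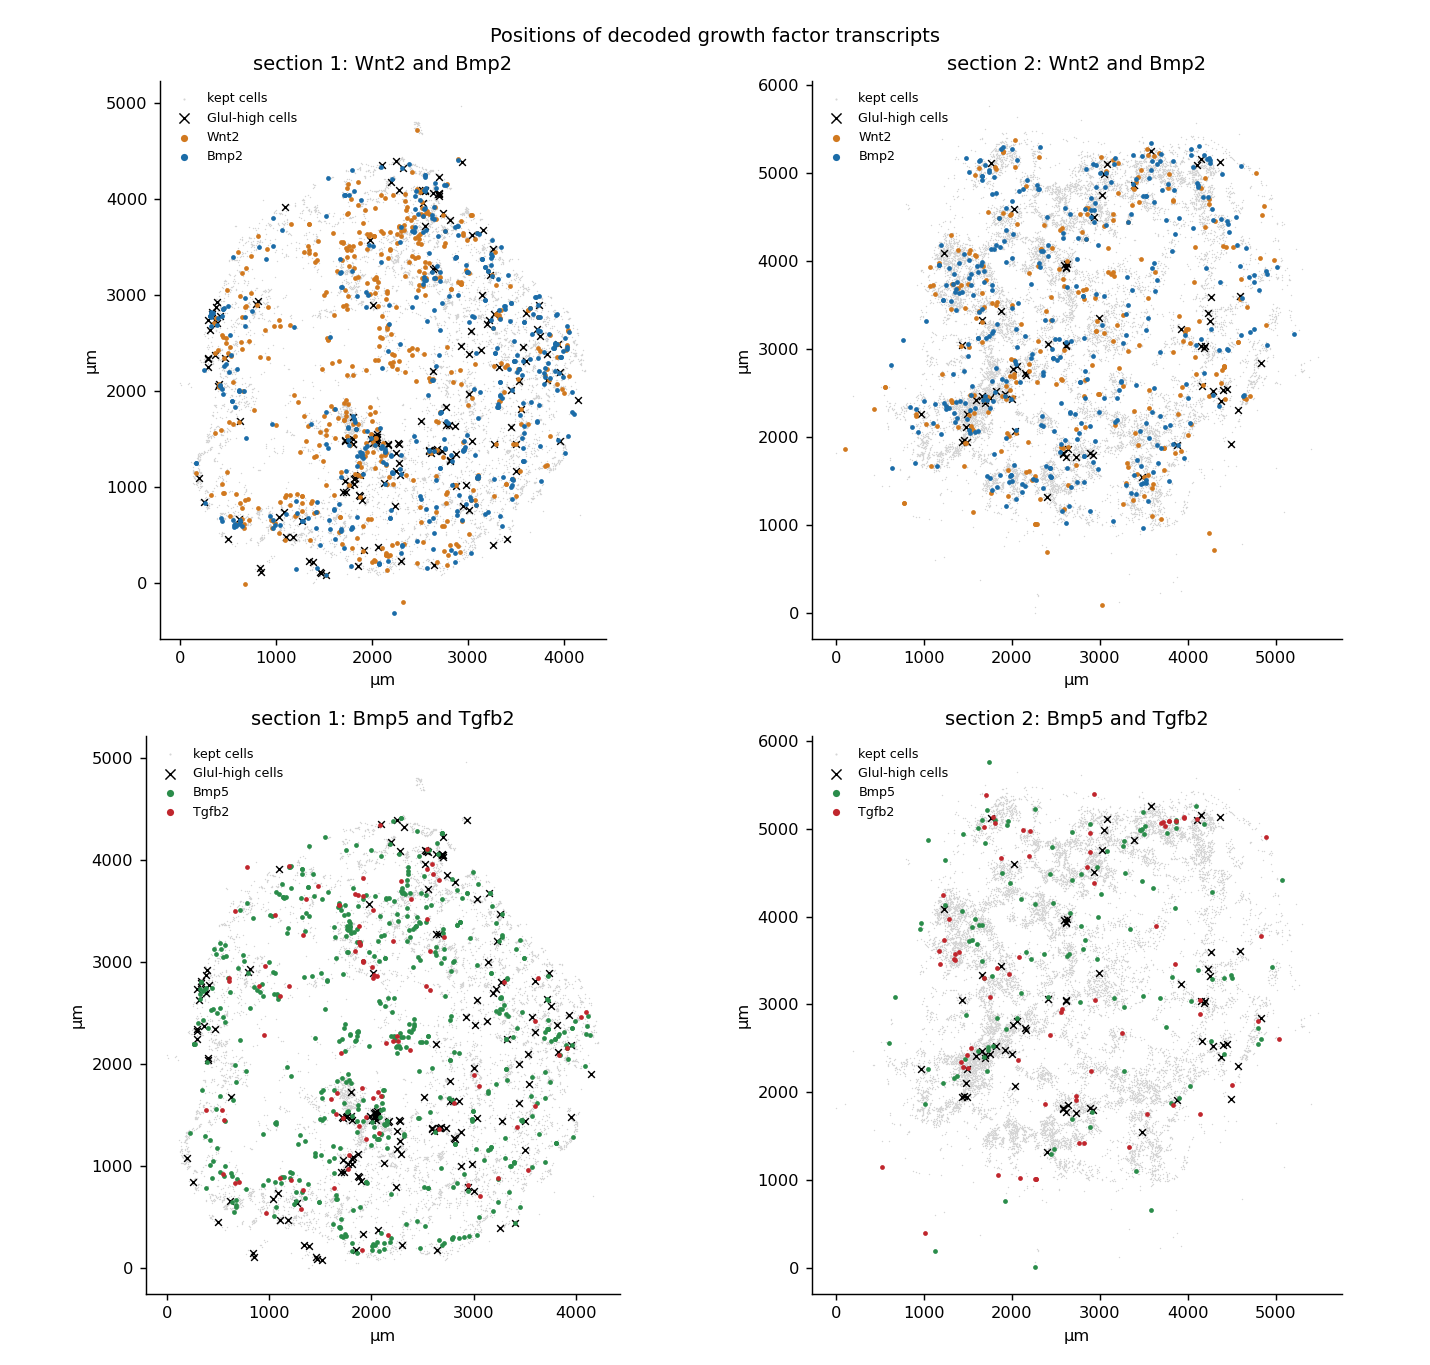
Positions of decoded transcripts in µm in each section, Wnt2 and Bmp2 above, Bmp5 and Tgfb2 below, over kept cells (grey) and Glul-high cells (crosses). Transcripts of all 4 genes were scattered over both sections, with 511 Wnt2 and 562 Bmp5 transcripts in section 1 and 284 and 125 in section 2.

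The genes with the most similar levels across 17 sums of section, cell group and distance from Glul-high cells were named for each growth factor, as a description over sums that share sections. The sums are split by the marker rule, so genes high in the same cell group are alike by construction. Before taking logs 0.5 was added to each count, which weighs most in the endothelial sums of section 2, with 704 counts together. Some genes named are sparse, with 50 counts for Itm2a and 72 for Stap1. Wnt2 was most like C1qtnf1 (Pearson r = 0.88), Pcdh12 (0.87) and Ushbp1 (0.84), and Bmp2 most like Ushbp1 (0.93), C1qtnf1 (0.91) and Notch4 (0.91). Pcdh12 encodes a protocadherin of endothelial cells and Notch4 a Notch receptor of endothelium. Bmp5 was most like Trib2 (0.90), Tgfbi (0.84) and Stap1 (0.82), and Tgfb2 most like Itm2a (0.93), Acta2 (0.92) and Zyx (0.90). Hgf had the lowest top value, with Kctd3 (0.80), Cybb (0.79) and Plek (0.77). Cybb encodes an oxidase subunit of phagocytes.

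Place in the lobule was taken from Glul-high cells, with at least 3 Glul counts, of which there were 160 in section 1 and 68 in section 2. By marker counts, 15.6% of the 160 were endothelial and 13.8% collagen-rich, against 3.82% and 9.31% of the near cells defined next. In section 2 it was 0 and 1 of the 68. The cut is on raw counts and favours cells with many counts. In section 1 the 160 cells held 17112 counts of genes other than Glul, and 1386 near cells held 62292. Cells up to 50 µm from one were called near, up to 150 µm middle and beyond that far, and the Glul-high cells themselves were left out. Genes of the lobule centre and Cyp2f2, known from the portal side of the lobule, were looked at as a check of this ruler. Cyp2e1 held 40.0 counts per 10000 in near cells and 28.1 in far cells of section 1, and 60.8 and 29.9 in section 2, a log2 difference, near over far, of 0.79 ± 0.15 (SE, adjusted p = 0.0479 in edgeR's test). Gulo, a vitamin C synthesis gene, was higher by 0.68 ± 0.12 (0.0401). Axin2, a direct target of Wnt signalling, was at 0.81 ± 0.25 and did not pass after adjustment (0.247). Cyp2f2 held 24.7, 18.9 and 27.05 counts per 10000 in near, middle and far cells of section 1, with overlapping near and far intervals. In section 2 it rose outward, at 5.77, 9.41 and 18.04, and the near interval lay below the far one. By these intervals, Cyp2f2 separated near from far cells in section 2 only, so the portal side of the ruler was not seen in cells of section 1.

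None of the 5 growth factors passed the test of near against far cells, in which 0.714% of 420 genes rose and 0.476% fell, 3 and 2 genes. Wnt2 held 3.85 counts per 10000 in near, 4.82 in middle and 4.93 in far cells of section 1, and 5.77, 3.76 and 3.02 in section 2. The sections thus pointed in opposite directions, with log2 ratios, near over far, of -0.36 and 0.93, and the fit gave 0.16 (95% interval -0.63 to 0.96). Differences within that interval were not detectable at this depth. Bmp2 held 7.06, 8.83 and 5.55 per 10000 in section 1 and 4.44, 4.57 and 5.44 in section 2, a fit of 0.09 (-0.59 to 0.77). In section 1 the middle interval of Bmp2, 7.44 to 10.4, lay above the far one, 4.40 to 6.89, and overlapped with the near one, 5.13 to 9.48. Endothelial cells, where Bmp2 was highest, were 3.82% of near, 3.56% of middle and 2.03% of far cells there. The part of this in the Bmp2 values was not tested. In section 2 the near, middle and far intervals of Bmp2 all overlapped.

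Hgf held 5.62, 4.94 and 5.48 counts per 10000 in near, middle and far cells of section 1 and 4.88, 2.42 and 3.07 in section 2, a log2 fit of 0.25 (95% interval -0.40 to 0.90). Bmp5 held 6.10, 4.51 and 7.53 in section 1 and 3.11, 1.88 and 1.46 in section 2, a fit of 0.07 (-0.77 to 0.91) over sections that again disagreed in sign. Tgfb2 held 0.963, 0.864 and 0.548 in section 1 and 2.22, 0.941 and 0.907 in section 2, from 6 and 5 near counts. It had the largest fitted difference of the 5, at 1.0 ± 0.51 (-0.16 to 2.17), with an adjusted p of 0.433 in edgeR's test. Collagen-rich cells moved with place too: they were 9.31% of near, 3.78% of middle and 4.04% of far cells in section 1 and 3.50%, 1.86% and 2.26% in section 2, and Col1a1 was higher in near cells by 0.87 ± 0.12. The part of this in the Tgfb2 value was not tested, but within other cells Tgfb2 fell below the filter of 50 counts.

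Within other cells alone, Wnt2 (0.17), Bmp2 (-0.09), Hgf (0.29) and Bmp5 (0.14) did not pass either, and 0% of 413 genes were called. edgeR gave 41 genes at an unadjusted p under 0.05, and DESeq2 called 2 higher and 2 lower. Endothelial cells by distance could only be described. In section 1 the 25 Glul-high, 53 near, 129 middle and 82 far endothelial cells held 15.8, 7.29, 22.6 and 11.7 Wnt2 counts per 10000, from 6, 3, 28 and 7 counts. Their Bmp2 levels were 13.2, 38.9, 43.6 and 43.6 per 10000, from 5, 16, 54 and 26 counts. Bmp2 was alike at near, middle and far distances, with overlapping intervals, and the Glul-high endothelial cells lay lowest, with an interval of 4.28 to 30.8 that overlapped with those of near (22.2 to 63.2) and far cells (28.5 to 63.9) and not with that of middle cells (32.7 to 56.9). Section 2 had no endothelial cell near a Glul-high cell.

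Over all decoded transcripts, in or out of cells, none of the 5 passed, with 1.24% of 483 genes higher and 1.45% lower, 6 and 7 genes. In section 1, Wnt2 held 5.90, 4.27, 5.23, 7.64, 7.06 and 10.7 transcripts per 10000 in steps at 0, 25, 50, 100, 150 and 250 µm and beyond, and Bmp5 held 4.59, 6.25, 4.82, 5.67, 9.83 and 12.9. Both were highest in the outermost step. The mean blank went the same way there, at 1.18, 1.47, 1.85, 2.27, 2.95 and 4.34 per 10000, and its part in these values was not tested. In section 2, Wnt2 held 6.67, 5.30, 6.09, 4.20, 2.91 and 3.70 per 10000 and Bmp5 1.48, 2.47, 2.07, 2.22, 1.55 and 1.60, so the outward increase was not seen there. The log2 fits, near over far, were -0.07 (95% interval -0.95 to 0.81) for Wnt2, -0.49 (-1.53 to 0.56) for Bmp5, 0.16 (-0.42 to 0.74) for Bmp2, 0.26 (-0.30 to 0.83) for Hgf and 0.29 (-0.75 to 1.34) for Tgfb2.

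**Figure D4:**
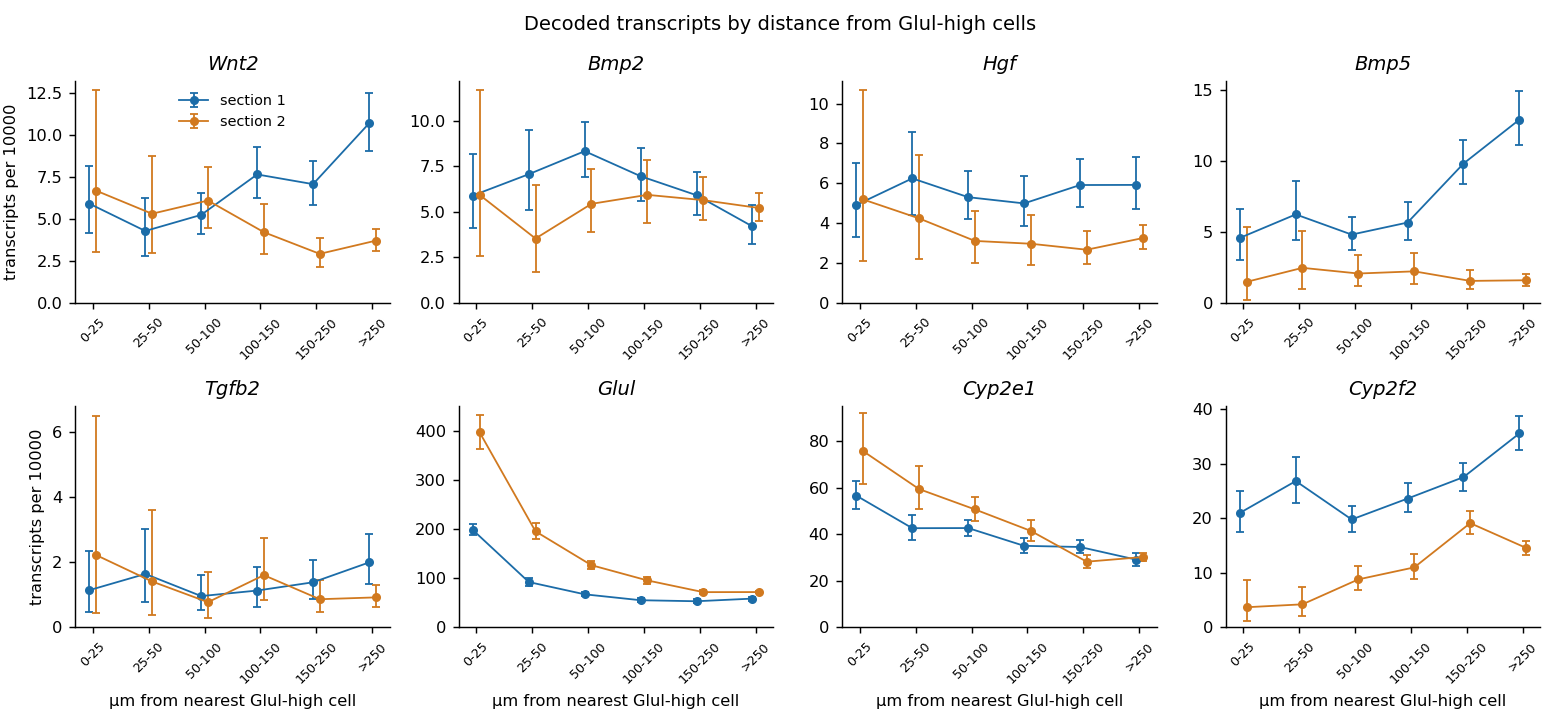
Decoded transcripts per 10000 of each growth factor and of Glul, Cyp2e1 and Cyp2f2 by distance from the nearest Glul-high cell in µm, 1 line per section with exact 95% Poisson intervals. Cyp2e1 was highest in the first step in both sections, while Wnt2 and Bmp5 were highest beyond 250 µm in section 1, at 10.7 and 12.9, and not in section 2.

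Of the 30 other pathway genes tested in cells by place, 2 rose, Cyp2e1 and Gulo, and none fell, and the median log2 difference was 0.08 against -0.05 over all 420 genes. Of 32 tested over all transcripts, 2 rose, again Cyp2e1 (0.96 ± 0.15) and Gulo (0.80 ± 0.12). Axin2 at 0.93 ± 0.18, Oat at 0.99 ± 0.21 and Rnase4 at 1.43 ± 0.29 did not pass there, each with an adjusted p of 0.0528 in edgeR's test. Met, the receptor of Hgf, was at -0.45 ± 0.59 in cells and -0.80 ± 0.38 over transcripts and did not pass. Without TMM the cell split was 1 higher and 2 lower, scaled by cell volume it was 12 and 1 with the median of all genes at 0.26, and over transcripts without TMM no gene passed.

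**Figure D5:**
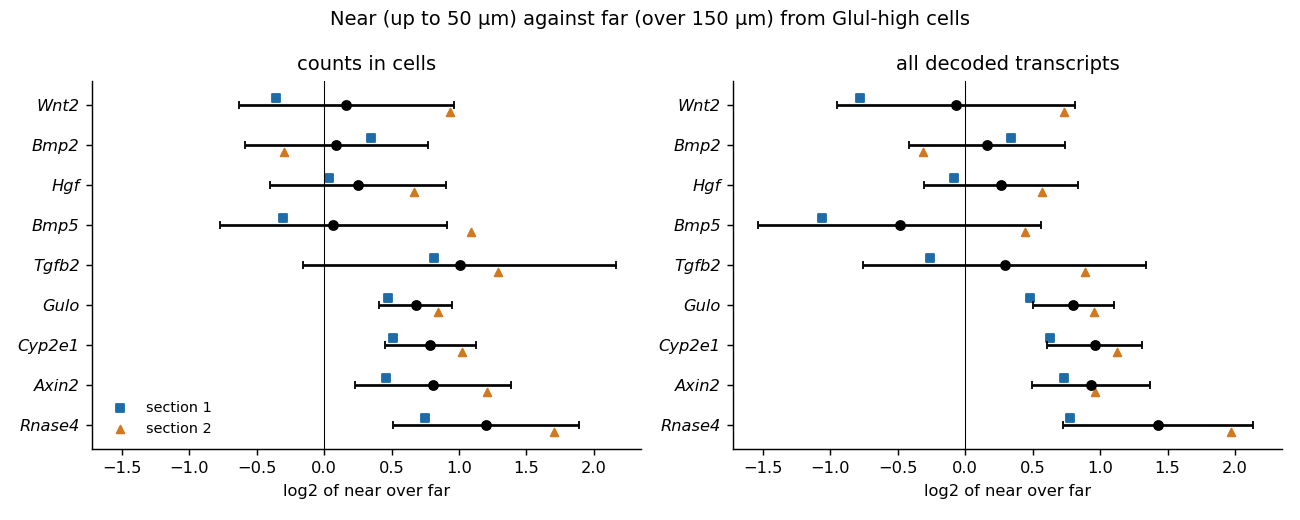
Log2 of the level near (up to 50 µm) over far (over 150 µm) from Glul-high cells, for counts in cells and for all decoded transcripts. Black points are the fit with its 95% interval, squares section 1 and triangles section 2: the intervals of all 5 growth factors cover 0, and those of Gulo and Cyp2e1 do not.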

How the data were processed

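MERFISH was run on 2 mouse liver sections. The authors deposited raw counts of 500 genes and 50 blanks in each segmented cell, a signal per cell (volume), and every decoded transcript with its position, per the file headers. The decoding and segmentation software is not given in the sources used here. The growth factors and all gene lists were chosen with earlier results of these data known.

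Cells were kept at 10 gene counts and a volume of 50. Counts were summed by section and cell group, or by section and distance, leaving out the 9 genes that set the cell groups (Glul alone for place). The 6 sums were fitted with edgeR 4.0.16 in R 4.3.3 (quasi-likelihood, TMM, section as a block, genes of at least 50 counts, Benjamini-Hochberg at 0.05). Cell groups of 1 section share that section, so the block follows from the design. DESeq2 1.42.0 was an alternative. Named genes were the 5 growth factors, the 3 genes most like each, and members of the pathway lists. Kept cells held 377792 and 292000 counts of genes that set no group.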

Additional observations from a re-analysis of the deposited data

How the results depend on the processing

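Precision was limited by depth: the growth factors had 30 to 284 counts per section in kept cells, and the endothelial cells of section 2 held 704 counts of all genes. No test of near against far was made in endothelial cells, since the smallest distance bin held 0 cells, and at most 8 under any alternative. With 1 section left out a difference is a value with no test. Where the remaining section had a count of 0 in one group no value was given. Section 2 by itself gives no endothelial value for Hgf, Bmp5 or Tgfb2.

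The direction of every growth factor that passed in cell groups was kept under all alternatives run. Calls were lost as follows. Endothelial over other, Wnt2 was 1.80 in DESeq2 (adjusted p = 0.218), 1.98 without the replicate block (0.439), 2.17 at 20 gene counts (0.106) and 1.93 at 5 marker counts (0.359), and Bmp2 was 2.78 at 5 marker counts (0.165). Collagen-rich over other, Bmp5 was 2.89 without the replicate block and 2.14 at 5 marker counts, and Hgf passed at 1.63 with 2 marker counts. Endothelial over collagen-rich, Bmp2 was 2.595 without the replicate block and 2.61 at 5 marker counts. There Bmp5 was -2.36 without the block, -2.69 at 20 gene counts and -2.32 at 5 marker counts, and Tgfb2 was -3.77 in DESeq2 and -4.66 without the block. Wnt2 passed there at 1.90 scaled by cell volume, and Hgf at -1.57 with 2 marker counts.

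By section, with the other left out, endothelial over other ranged from 2.05 to 2.27 for Wnt2 and from 3.17 to 4.31 for Bmp2, and section 1 gave 0.34 for Hgf, 0.20 for Bmp5 and -0.13 for Tgfb2. Collagen-rich over other ranged from 2.97 to 3.18 for Bmp5 and from 3.97 to 4.84 for Tgfb2, and section 1 gave 2.18 for Hgf. Endothelial over collagen-rich ranged from 1.504 to 4.63 for Bmp2, and section 1 gave -1.85 for Hgf, -2.98 for Bmp5 and -4.10 for Tgfb2. Near over far ranged from -0.30 to 1.09 for Bmp5 in cells and from -0.31 to 0.34 for Bmp2 over transcripts.

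Differences that did not pass and changed sign had these values. Endothelial over other, Hgf was 0.22 without the replicate block, 0.51 by volume, 0.26 at 20 and 0.0083 at 5 gene counts and 0.057 at 2 marker counts. Bmp5 was -0.027 in DESeq2, -0.062 at 5 gene counts and -0.18 at 5 marker counts, and Tgfb2 was 0.26 in DESeq2 and 0.49 by volume. Near over far in all cells, Wnt2 was -0.054 at 20 gene counts, -0.038 with Glul of 5 and -0.24 with Glul of 2. With Glul of 5, Bmp2 was -0.87 and Hgf -0.37, with Glul of 2, Bmp5 was -0.33 and Tgfb2 -0.064, and with 3 equal distance bins Hgf was -0.15 and Bmp5 -0.39. In other cells, Wnt2 was -0.10 at 20 gene counts, -0.30 with Glul of 5, -0.48 with Glul of 2 and -0.20 with 3 equal bins. Bmp2 was 0.21 by volume, 0.081 with Glul of 2 and with paired Glul-high cells, and 0.32 with 3 equal bins. Hgf was -0.51 with Glul of 5 and -0.19 with 3 equal bins, and Bmp5 -0.74 with Glul of 2 and -0.63 with 3 equal bins. Over transcripts, Wnt2 was 0.033 in DESeq2, 0.024 without the block, 0.042 with Glul of 5 and 0.39 with paired Glul-high cells. There Hgf was -0.41 and Bmp5 0.14 with Glul of 5, Bmp5 0.20 with paired Glul-high cells and Tgfb2 -0.78 with Glul of 2.

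The number of genes called moved by over 1.5 times in these cases, and the cause was not tested. Endothelial over other it was 20, against 9 without the replicate block, 58 by volume, 13 at 20 gene counts, 3 at 5 and 35 at 2 marker counts. Collagen-rich over other it was 22, against 55 without TMM, 4 without the block, 52 by volume, 10 at 20 gene counts and 12 at 5 marker counts. Endothelial over collagen-rich it was 17, against 34, 5, 47 and 10 for these, 7 at 5 marker counts and 27 at 2. Near over far in all cells it was 5, against 3 without TMM, at 20 and at 5 gene counts and with Glul of 5, 0 without the block (4 at an unadjusted p under 0.05), 13 by volume, 17 with Glul of 2 and 27 with paired Glul-high cells. In other cells it was 0, against 4 in DESeq2, 10 by volume, 1 with Glul of 5, 16 with Glul of 2, 23 with paired Glul-high cells, and 2 without TMM, for genes of 10 counts, at 20 and 5 gene counts and with 3 equal bins. Over transcripts it was 13, against 0 without TMM (106 unadjusted) and without the block (10 unadjusted), 2 for genes of 10 counts, 33 with Glul of 2 and with paired Glul-high cells, 30 with 3 equal bins and 7 without transcripts in Glul-high cells, an alternative chosen after seeing the data. No growth factor passed by place under any of these. Within 5 and 20 µm, both also chosen after seeing the data, endothelial markers around Bmp2 stood at a mean log2 fold of 2.79 and 1.05, those around Wnt2 at 2.13 and 0.61, and collagen markers around Tgfb2 at 4.56 and 3.79. At 20 µm in section 2, Wnt2 fell below the highest blank, with endothelial markers 1.38 times as frequent as around all genes, at rank 35, against 1.54 for the blank.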
